A study of Homo sapiens with 8 samples.

Results

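The genes described here are 10 immediate early genes, EGR1, EGR2, EGR3, FOS, FOSB, JUN, JUNB, ARC, IER2 and IER3, out of 60658 genes listed in the expression table. They were found by gene symbol and had been chosen on the comparison of the H/R+BA group with the H/R group in these same libraries. Their differences between the groups are therefore given as a description, with no test. The libraries came from hiPS-CMs, cardiomyocytes differentiated from 1 human iPSC line (235G1 in the labels; the methods spell it otherwise), and the study asked how factors released by brown adipocyte (BA) sheets act on them during hypoxia/reoxygenation (H/R). Cells of the H/R+BA group were held for 12 h at 1% O2 in low-glucose DMEM lacking serum and then reoxygenated for 12 h in medium that BA sheets had conditioned. Cells of the H/R group had the same hypoxia, followed by 12 h in DMEM with FBS. The sheets were made of rat brown preadipocytes differentiated with insulin, T3, IBMX, dexamethasone and rosiglitazone. That medium was then replaced by a maintenance medium with FBS, insulin and T3. Each group had 4 libraries (n = 4), and nothing says that these came from separate differentiations, so a p-value measures only the spread between these libraries.

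Immediate early genes are transcribed within minutes of a stimulus and need no new protein for it, because the factors that switch them on are already in the cell. Growth factors and stress act through MAP kinases on SRF and its ELK partners, which bind CArG boxes, while cAMP and calcium act through CREB-type factors at cAMP response elements. EGR1, EGR2 and EGR3 are zinc finger factors, and FOS, FOSB, JUN and JUNB pair with each other to form the AP-1 factor. In cardiomyocytes these genes are known for their brief induction by ischemia, stretch and hypertrophic agonists. ARC is not a DNA-binding factor but a cytoskeleton-associated protein best known from synapses, IER2 is a small nuclear protein, and IER3 is a stress-induced regulator of cell survival. The cells were sampled at 1 time, 12 h into reoxygenation, so the levels below are those after any first wave of induction, which was not measured.

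The promoters are shown because immediate early genes are defined by how they are switched on. RefSeq promoter windows of 300 bases (GRCh38.p14, 250 before to 50 after the start) were matched for 7 of the 10 genes, EGR1, EGR2, FOS, FOSB, JUN, JUNB and IER2. Each window was searched on both strands for the CArG box and for TGACG, the core of the cAMP response element. The other motifs searched were the TATA box TATAAA, the GC box GGGCGG, the EGR motif GCGTGGGCG and the AP-1-like element known from JUN, TGACATCA. Below are the 150 bases before the start, 5′ to 3′ on the strand of the gene, with capitals for the CArG box, the TGACG motif on either strand, the TATA box and the AP-1-like element. They lie at chr5:138465329-138465478 (EGR1, + strand), chr10:62816367-62816516 (EGR2, − strand, window 3 of its 3 starts), chr14:75278678-75278827 (FOS, + strand), chr19:45467846-45467995 (FOSB, + strand), chr1:58784048-58784197 (JUN, − strand) and chr19:12791336-12791485 (JUNB, + strand).
EGR1: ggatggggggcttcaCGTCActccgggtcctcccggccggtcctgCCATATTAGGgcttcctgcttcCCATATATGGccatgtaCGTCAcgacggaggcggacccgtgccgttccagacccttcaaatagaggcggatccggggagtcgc
EGR2: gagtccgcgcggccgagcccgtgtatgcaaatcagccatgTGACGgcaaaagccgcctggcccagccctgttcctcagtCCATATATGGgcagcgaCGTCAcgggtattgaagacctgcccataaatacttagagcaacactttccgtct
FOS: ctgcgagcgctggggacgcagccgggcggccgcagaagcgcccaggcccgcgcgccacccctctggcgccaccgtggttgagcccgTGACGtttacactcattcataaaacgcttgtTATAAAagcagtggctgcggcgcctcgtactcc
FOSB: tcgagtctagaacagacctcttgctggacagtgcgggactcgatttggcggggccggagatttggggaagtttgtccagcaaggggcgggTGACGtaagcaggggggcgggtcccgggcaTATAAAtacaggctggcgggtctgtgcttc
JUN: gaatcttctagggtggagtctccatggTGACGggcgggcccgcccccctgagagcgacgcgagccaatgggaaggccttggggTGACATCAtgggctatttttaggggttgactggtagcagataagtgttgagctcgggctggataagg
JUNB: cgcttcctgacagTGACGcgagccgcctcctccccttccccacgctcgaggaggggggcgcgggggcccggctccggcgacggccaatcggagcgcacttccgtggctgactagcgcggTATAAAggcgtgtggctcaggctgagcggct

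EGR1 held CArG boxes at 105 and 83 bases before its start and EGR2 held one at 71 bases before the third start and none in the windows of its other starts. A match was thus found in 2 of the 7 genes, and in 1.296% of all 34943 windows. A gene with several starts has more windows in which to match, so counts of genes and shares of windows are not on the same footing. TGACG was found in at least 1 window of all 7 genes, but in only 1 of the 3 EGR2 windows, the third, and in 24.5% of all windows. TATAAA lay 33 bases before the start of FOS, 30 before that of FOSB and 31 before that of JUNB, and 11.6% of windows held it. TGACATCA was found in JUN alone among the 7 (67 bases before the start), against 2.61% of windows, GGGCGG in 5 of 7 (44.9%) and GCGTGGGCG in 0 of 7 (0.796%). In JUN a GGGCGG match begins at the last base of the TGACG match. A match describes the letters of these windows and says nothing of whether a factor was bound in these cells, and a window with no match says only that the letters are not in it.

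The genes are spread over 7 chromosomes by GENCODE 44 (GRCh38; the table was made on GRCh38.p5). EGR1 spans chr5:138465479-138469303, FOS chr14:75278826-75282230, IER3 chr6:30743199-30744548 and ARC chr8:142611049-142614479. JUNB (chr19:12791486-12793315) and JUN (chr1:58776845-58784048) have 1 exon each and so no intron. JUNB and IER2 both lie on chromosome 19, their starts 358.925 kb apart.

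The libraries held 48100296 to 53308952 reads in the H/R+BA group and 39854257 to 48898147 in the H/R group, and 95.5% to 96.3% of them were mapped in the H/R+BA group and 95.4% to 96.2% in the H/R group. The 12 cardiomyocyte markers were all expressed, with a summed level of 16272 to 20204 FPKM (fragments per kilobase of transcript, scaled to the mapped fragments of the library) in the H/R+BA group and 13865 to 21730 FPKM in the H/R group. The H/R libraries were more uneven than the H/R+BA libraries, with a larger spread of log2(FPKM + 1) in the H/R group for 69.2% of the 14334 genes tested. Within the H/R group, replicates 2 and 4 stood apart from replicates 1 and 3. Their cardiomyocyte markers summed to 13865 and 16471 FPKM, against 21730 and 21688 FPKM in replicates 1 and 3. Their hepatic and endoderm markers summed to 1164 and 848 FPKM, against 510 and 408 FPKM, and mitochondrially encoded genes held 14.9% and 17.2% of the summed FPKM, against 18.1% and 21.97%. In bulk RNA, fewer cells that express a gene and less RNA per cell cannot be told apart.

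Of the immediate early genes, ARC and EGR1 had the largest folds between the group means (3.77 and 2.79), IER3 had the highest level and a smaller fold (1.38), and FOS, FOSB and JUN overlapped. Mean FPKM was lower in the H/R+BA group for 9 of the 10 genes and higher for JUN. In 5 of the 10 (EGR1, EGR3, JUNB, ARC and IER3) every H/R+BA library lay below every H/R library. Over all 14334 tested genes the groups did not overlap for 28.6%, and the H/R+BA group was the lower in 13.3%. Since the members were chosen on this contrast, nothing is read from these shares. The median difference over the 10 genes was −0.33 on the log2(FPKM + 1) scale (H/R+BA minus H/R), against 0.0086 over all tested genes. This scale understates the difference of genes with low FPKM.

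**Figure D1:**
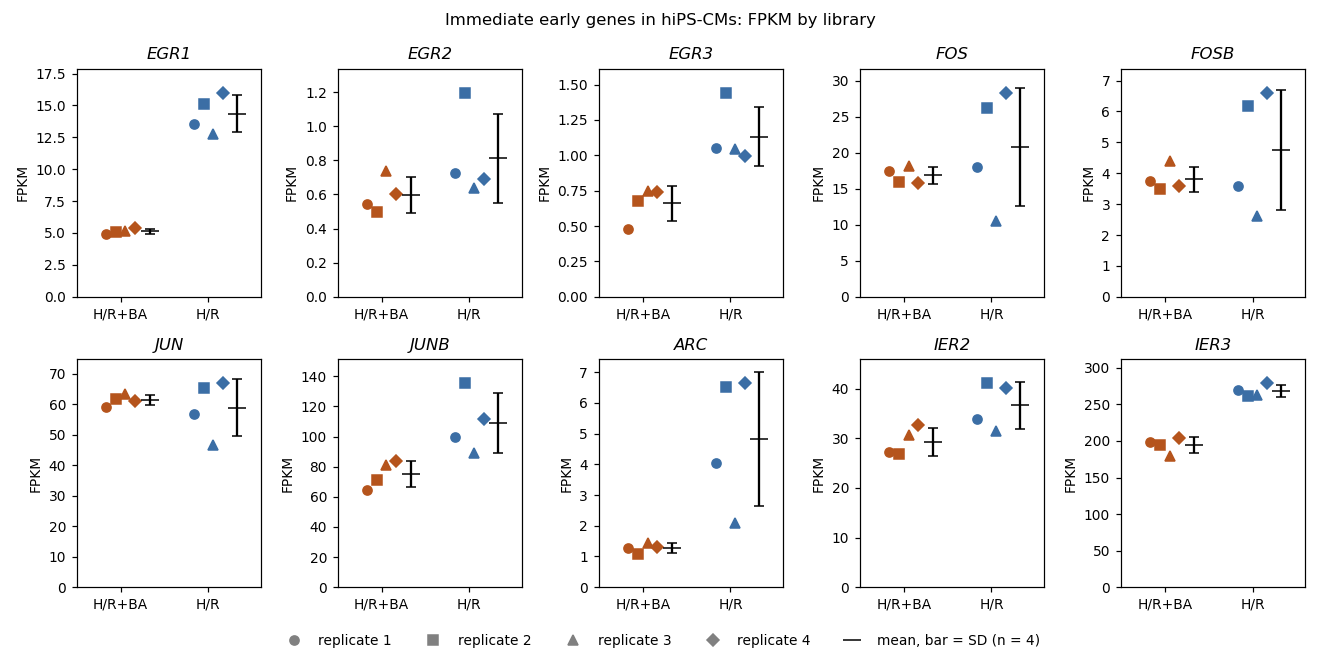
Normalized FPKM of the 10 immediate early genes (vertical axes, each from 0) in the 4 H/R+BA libraries (left, orange) and the 4 H/R libraries (right, blue), with the replicate shown by the marker and the mean ± SD by the bar. EGR1 lies between 4.93 and 5.39 FPKM in the H/R+BA group and between 12.8 and 15.98 FPKM in the H/R group, while the groups overlap for EGR2, FOS, FOSB, JUN and IER2.

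EGR1, the founding member of its family and an activator of growth factor and matrix genes, stood far apart between the groups, with little scatter inside either. It had 4.93, 5.11, 5.13 and 5.39 FPKM in the H/R+BA libraries, against 13.6, 15.1, 12.8 and 15.98 FPKM in the H/R libraries. The highest H/R+BA library was thus 7.37 FPKM below the lowest H/R library. The means were 5.14 ± 0.187 FPKM in the H/R+BA group and 14.4 ± 1.46 FPKM in the H/R group (SD, n = 4 each), a level 2.79-fold lower with BA sheet medium. On the log2(FPKM + 1) scale the difference was −1.32 (standard error 0.072), at rank 9 from the lowest of 14334 tested genes. EGR1 was chosen on this contrast, so nothing is read from that rank. In the deposited normalized counts EGR1 averaged 626 in the H/R+BA group and 1743 in the H/R group.

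EGR2 and EGR3, which in neurons and lymphocytes act beside EGR1, were near the limit of what was tested. EGR3 had 0.480, 0.675, 0.747 and 0.744 FPKM in the H/R+BA libraries, against 1.05, 1.44, 1.04 and 0.995 FPKM in the H/R libraries. The groups did not overlap, and the mean was 1.71-fold lower in the H/R+BA group. EGR2 had 0.543, 0.494, 0.740 and 0.602 FPKM in the H/R+BA libraries, against 0.723, 1.19, 0.636 and 0.690 FPKM in the H/R libraries. These groups overlapped, and H/R replicate 2 stood well above the other H/R libraries. Without that library the EGR2 difference was −0.08 on the log2(FPKM + 1) scale, against −0.18 with all libraries. Neither gene reached 1 FPKM in 4 libraries (EGR3 did in 3 and EGR2 in 1), so both stayed outside the 14334 tested genes and 8 of the 10 members passed that filter. EGR4, the remaining EGR gene, was at 0.0946 FPKM or less in every library.

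The FOS genes overlapped between the groups and spread widely among the H/R cultures. FOS, the first AP-1 gene described, had 17.5, 15.98, 18.2 and 15.8 FPKM in the H/R+BA libraries, against 18.01, 26.3, 10.5 and 28.3 FPKM in the H/R libraries. All H/R+BA values lay inside the range of the H/R values. The highest H/R library was 2.70-fold above the lowest, and the highest H/R+BA library 1.15-fold above the lowest. FOSB, whose protein partners the same JUN proteins, had 3.74, 3.48, 4.38 and 3.60 FPKM in the H/R+BA libraries, against 3.59, 6.19, 2.63 and 6.60 FPKM in the H/R libraries. As with FOS, replicates 2 and 4 were the high H/R cultures and replicate 3 the low one. The FOS difference was −0.20 (standard error 0.312) and the FOSB difference −0.20 (standard error 0.264) on the log2(FPKM + 1) scale. Both depended on single H/R libraries. Without H/R replicate 4 the FOS difference was −0.03 and the FOSB difference −0.04, without H/R replicate 2 they were −0.06 and −0.07, and without H/R replicate 3 they were −0.47 and −0.40.

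JUN and JUNB, the AP-1 partners of FOS proteins, did not behave alike. JUN, the stronger activator, had 59.2, 61.9, 63.3 and 61.2 FPKM in the H/R+BA libraries, against 56.9, 65.3, 46.8 and 66.9 FPKM in the H/R libraries. The groups overlapped, and the means were 61.4 ± 1.73 FPKM in the H/R+BA group and 59.0 ± 9.26 FPKM in the H/R group (SD, n = 4 each). Its difference of 0.07 on the log2(FPKM + 1) scale turned to −0.03 without H/R replicate 3. JUNB, a weaker activator that can restrain JUN, had 64.6, 71.1, 81.2 and 83.7 FPKM in the H/R+BA libraries, against 99.6, 135.3, 88.8 and 111.5 FPKM in the H/R libraries. Its groups did not overlap, though the gap between the nearest libraries was only 5.09 FPKM. The JUNB mean was 1.45-fold lower in the H/R+BA group, a difference of −0.52 (standard error 0.154).

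ARC had the largest fold of the 10 genes. It had 1.26, 1.09, 1.45 and 1.31 FPKM in the H/R+BA libraries, against 4.03, 6.53, 2.103 and 6.64 FPKM in the H/R libraries. The H/R+BA libraries were uniformly low, and the H/R libraries ranged over 3.16-fold, with replicate 3 only 0.651 FPKM above the highest H/R+BA library. The mean was 3.77-fold lower in the H/R+BA group (1.28 ± 0.151 FPKM, against 4.82 ± 2.18 FPKM in the H/R group). The ratio of means, H/R+BA over H/R, was 0.291 by the deposited normalized counts. The normalized count behind 1 FPKM of ARC varied between libraries from 88.1 to 114, where that of EGR1 varied from 121 to 122, so the deposited FPKM and normalized counts of ARC do not keep 1 proportion across libraries. The same held for EGR3, with 98.2 to 137 normalized counts per FPKM, and to a lesser degree for FOSB (120 to 142) and FOS (59.7 to 67.2).

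IER2 and IER3 share a name prefix but do not belong to one protein family. IER3 was the most abundant of the 10 genes and had the tightest replicates in the H/R group. It had 198, 195, 179 and 204 FPKM in the H/R+BA libraries, against 270, 261, 262 and 279 FPKM in the H/R libraries. The gap between the groups was 56.9 FPKM, and the mean was 1.38-fold lower in the H/R+BA group (difference −0.46, standard error 0.045). IER2 had 27.2, 26.8, 30.7 and 32.7 FPKM in the H/R+BA libraries, against 33.9, 41.1, 31.5 and 40.1 FPKM in the H/R libraries. H/R+BA replicate 4 lay above H/R replicate 3 by 1.22 FPKM, which was the only overlap. Without either of these libraries the IER2 groups were apart, and without H/R+BA replicate 3 the EGR2 groups were, so 6 of the 10 genes were then apart in place of 5.

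The order of the levels by mean FPKM was nearly the same in both groups. In the H/R+BA group it ran IER3, JUNB, JUN, IER2, FOS, EGR1, FOSB, ARC, EGR3 and EGR2, and only EGR3 and EGR2 were neighbours whose libraries overlapped. In the H/R group ARC stood above FOSB, and 3 neighbouring pairs overlapped, FOS with EGR1, ARC with FOSB and EGR3 with EGR2.

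The spread among the H/R cultures ran the same way through most of the genes. For 9 of the 10, all but IER3, the spread of log2(FPKM + 1) was larger in the H/R group, against 69.2% of all tested genes. H/R replicates 2 and 4 were the highest of their group for 7 genes (EGR1, FOS, FOSB, JUN, JUNB, ARC and IER2), against 23.8% of all tested genes. H/R replicate 3 was the lowest for 8 genes, against 30.9% of all tested genes. That library also had the fewest reads, 39854257, against 47378189 to 48898147 in the other H/R libraries. Whether the number of reads had a part in this was not tested. The markers and the share of mitochondrially encoded genes that split replicates 2 and 4 from 1 and 3 are given above, and their part in this pattern was not tested. In the H/R+BA group FOS, FOSB, JUN and ARC were each highest in replicate 3, and the highest library was at most 1.34-fold above the lowest. EGR1, EGR2, EGR3, JUNB, ARC and IER2 were each higher in H/R+BA replicates 3 and 4 than in replicates 1 and 2. FOS, FOSB, JUN and IER3 did not follow that order. The share of all tested genes with that order was not computed, and the part of the marker split in it was not tested.

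**Figure D2:**
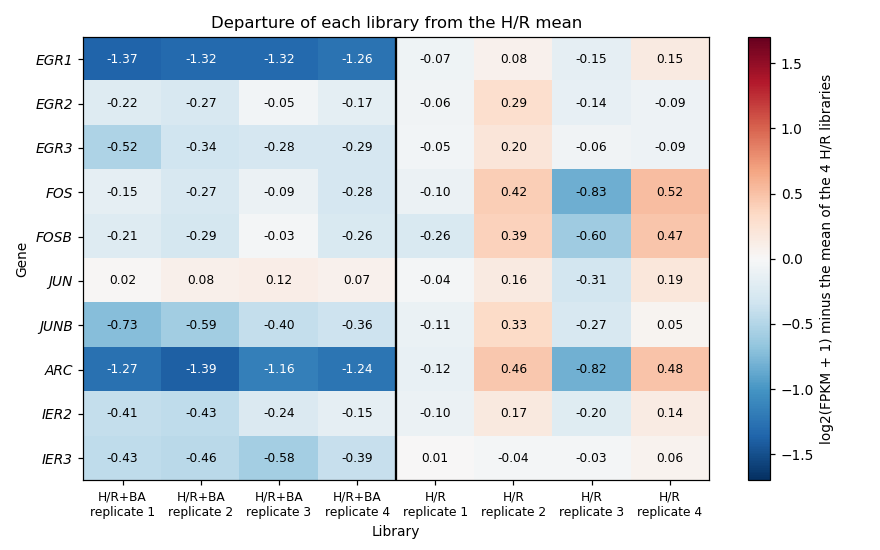
Departure of each library from the mean of the 4 H/R libraries, in log2(FPKM + 1), for the 10 genes (rows) in H/R+BA libraries (left) and H/R libraries (right), blue below and red above that mean. In all 4 H/R+BA libraries EGR1 departs by −1.37 to −1.26 and ARC by −1.39 to −1.16, and within the H/R group FOS, FOSB and ARC are above it in replicates 2 and 4 and below it in replicate 3.

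Ratios were also taken between genes inside each library. Of the 45 pairs of the 10 genes, 19 had ratios that did not overlap between the groups. Pairs that share a gene are not independent. No such share was computed over pairs of all tested genes, so nothing is read from this count. ARC over FOS was 0.0680 to 0.0831 in the H/R+BA libraries, against 0.200 to 0.248 in the H/R libraries. The ratio was steady among the H/R cultures, although FOS itself ranged over 2.70-fold and ARC over 3.16-fold there. ARC over FOSB was 0.312 to 0.365 in the H/R+BA libraries, against 0.801 to 1.121 in the H/R libraries. FOSB over FOS, in contrast, was 0.214 to 0.241 in the H/R+BA libraries and 0.200 to 0.250 in the H/R libraries. By FPKM this pair thus kept nearly the same proportion in all 8 libraries. Ratios were not taken on the normalized counts, to which the FPKM of ARC, FOS and FOSB do not keep 1 proportion.

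EGR1 over IER2 was the steadiest ratio within the H/R group, at 0.165 to 0.191 in the H/R+BA libraries and 0.368 to 0.405 in the H/R libraries. EGR1 over JUN was 0.0809 to 0.0880 in the H/R+BA libraries, against 0.231 to 0.273 in the H/R libraries. JUN over JUNB went the other way, at 0.732 to 0.917 in the H/R+BA libraries, against 0.483 to 0.600 in the H/R libraries. ATF3, a stress-induced partner of JUN proteins that is not among the 10 genes, was added after its values were seen. ATF3 over FOS was 4.16 to 4.55 in the H/R+BA libraries, against 3.17 to 3.60 in the H/R libraries. These ratios were computed from the values that chose the genes and carry no test.

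**Figure D3:**
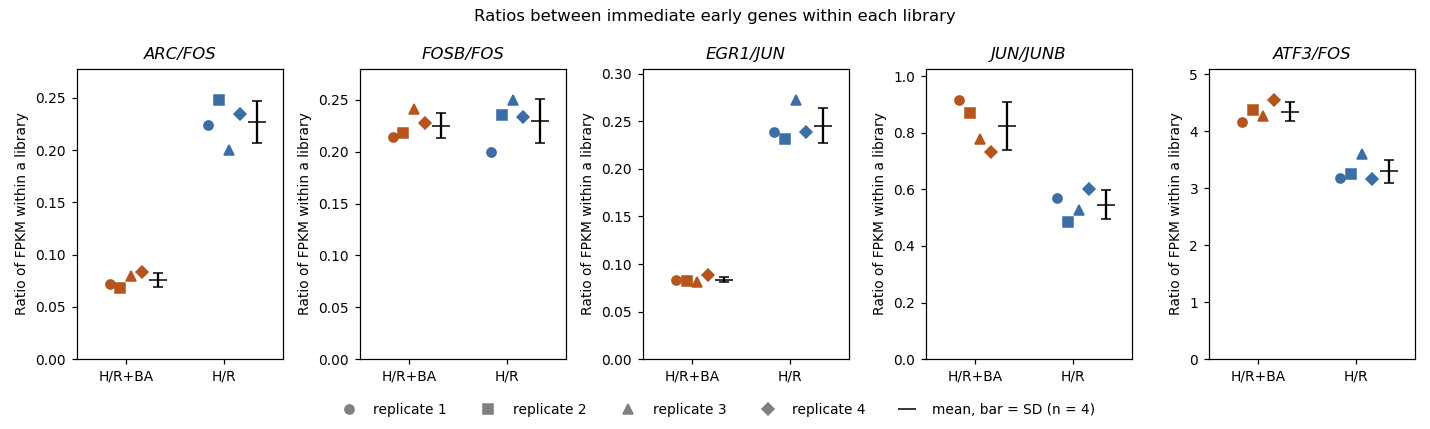
Ratio of the FPKM of pairs of genes within each library (vertical axes, each from 0) for 4 H/R+BA libraries (left, orange) and 4 H/R libraries (right, blue), with the mean ± SD as a bar. ARC/FOS and EGR1/JUN are lower and JUN/JUNB and ATF3/FOS higher in every H/R+BA library than in any H/R library, while FOSB/FOS overlaps.

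Summed over each family, the EGR genes differed most. EGR1, EGR2, EGR3 and EGR4 together had 5.96 to 6.73 FPKM in the H/R+BA libraries, against 14.5 to 17.8 FPKM in the H/R libraries. EGR1 held 77.1% to 82.8% of this sum in the H/R+BA group and 84.8% to 90.0% in the H/R group. The FOS family, with FOSL1 and FOSL2, had 69.3 to 74.0 FPKM in the H/R+BA libraries and 46.7 to 85.6 FPKM in the H/R libraries, so its sum overlapped. Its makeup did not overlap for FOSL1, an AP-1 subunit that lacks a strong activation domain, which held 33.7% to 38.0% in the H/R+BA group and 26.2% to 30.2% in the H/R group. The JUN family, with JUND, had 190.3 to 222 FPKM in the H/R+BA libraries and 203 to 268 FPKM in the H/R libraries. JUNB held 33.9% to 39.2% of it in the H/R+BA group, against 43.7% to 50.6% in the H/R group, and JUN held 28.5% to 31.1%, against 23.02% to 26.8%.

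**Figure D4:**
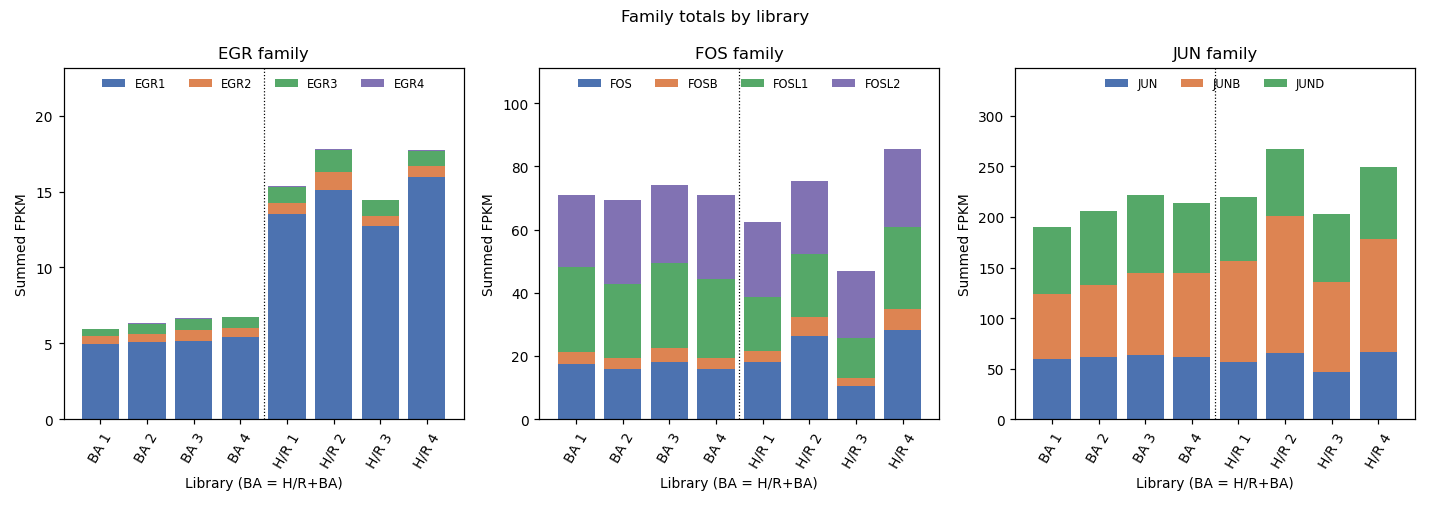
Summed FPKM (vertical axes, from 0) of the EGR, FOS and JUN families in each library, H/R+BA (BA 1 to 4) left of the dotted line and H/R right of it, with each gene as a coloured part of the bar. The EGR sum is 5.96 to 6.73 FPKM in the H/R+BA libraries and 14.5 to 17.8 FPKM in the H/R libraries, while the FOS and JUN sums overlap.

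Genes of the same pathway that were not among the 10 were tested with limma on log2(FPKM + 1), a call being an adjusted p under 0.05 over all 14334 genes. Over all of these, 24.7% were called, 13.7% as higher with BA sheet medium and 11.1% as lower. The 5 lists used here share some genes and held 124 distinct genes, 113 of them tested, with 18 higher and 13 lower. Their medians lay between −0.05 and 0.10, against 0.0086 over all tested genes.

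**Figure D5:**
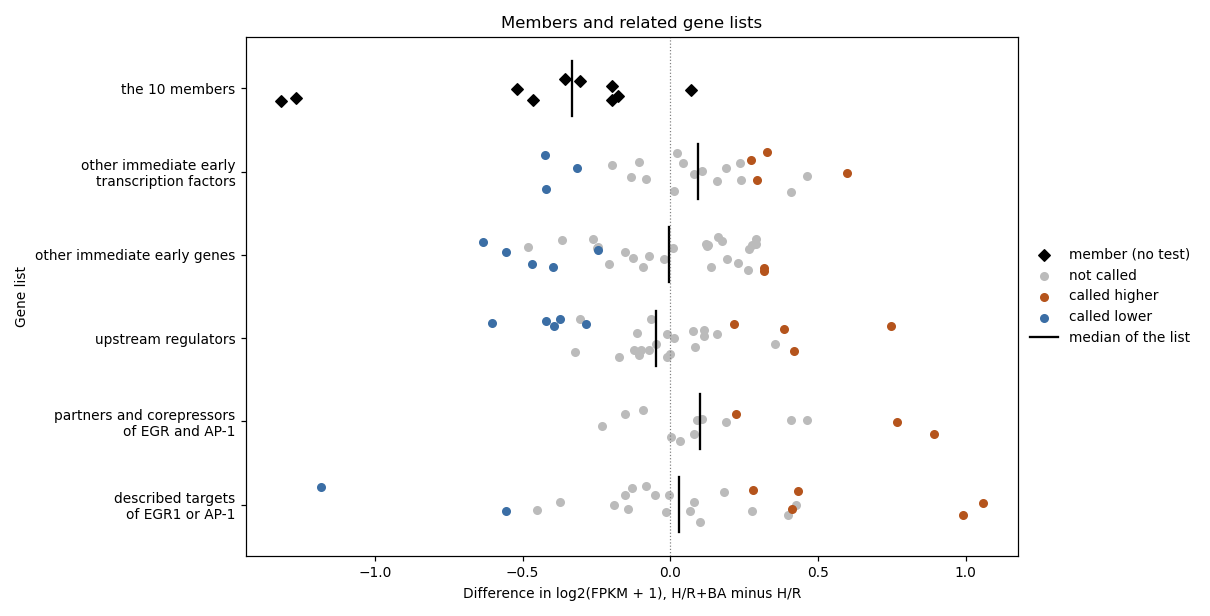
Difference in log2(FPKM + 1), H/R+BA minus H/R (horizontal axis), for the 10 members and for the tested genes of 5 related lists (rows), orange for genes called higher, blue for genes called lower and grey for genes not called, with a line at each list's median. The members' median is −0.33 and those of the other lists lie between −0.05 and 0.10; the members carry no test because they were chosen on this difference.

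Of 24 other immediate early transcription factors, 22 were tested (not EGR4 and NPAS4), and 4 were higher and 3 lower, 31.8% called, with a median of 0.10. The C/EBP factor CEBPB rose to 12.8 ± 0.629 FPKM in the H/R+BA group, against 8.23 ± 1.85 FPKM in the H/R group (difference 0.60, adjusted p = 0.00819). NR4A1, an orphan nuclear receptor, rose as well (11.7 ± 0.534 FPKM, against 9.36 ± 0.654 FPKM in the H/R group, adjusted p = 0.0120). SRF, which drives many immediate early promoters and is itself one of these genes, had 16.7, 17.5, 16.6 and 15.8 FPKM in the H/R+BA libraries, against 24.5, 21.3, 24.98 and 19.99 FPKM in the H/R libraries. SRF fell by 0.42 on the log2(FPKM + 1) scale (standard error 0.077, adjusted p = 0.00464), with all H/R+BA libraries below all H/R libraries. The small MAF factor MAFK was also lower (17.9 ± 1.34 FPKM, against 24.5 ± 3.75 FPKM, adjusted p = 0.0144).

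The remaining calls of this list did not hold without every library. NR4A3 was higher (adjusted p = 0.0272), a call lost without H/R+BA replicates 1, 2 or 4 or H/R replicates 2 or 4 (adjusted p 0.0522 to 0.0773). CEBPD was higher (adjusted p = 0.0253), a call lost without any H/R+BA replicate or H/R replicates 1 or 2 (adjusted p 0.0513 to 0.0679). CSRNP1, a nuclear protein induced by AXIN1, was lower (adjusted p = 0.0211), but not without H/R+BA replicate 2 (0.0634) or H/R replicate 4 (0.0524). NR4A2 was not called with all libraries (adjusted p = 0.0516) and was called higher without H/R replicate 2 (0.0157). Without H/R+BA replicate 2 the list held 4 calls in place of 7, 2 higher and 2 lower, and without H/R+BA replicates 1 or 4 it held 2 higher and 3 lower.

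FOSL1, FOSL2, JUND, ATF3 and MYC were not called with all libraries, while JDP2, a partner of JUN proteins, was called higher and is given below. FOSL1 had 25.5 ± 1.71 FPKM in the H/R+BA group and 18.8 ± 5.53 FPKM in the H/R group (difference 0.46, adjusted p = 0.0754), and it was called higher without H/R replicate 4 (adjusted p = 0.0124). FOSL2 and JUND had differences of 0.11 and 0.08 (adjusted p = 0.290 and 0.350). ATF3 had 72.7, 69.9, 77.5 and 71.98 FPKM in the H/R+BA libraries, against 57.3, 85.2, 37.8 and 89.6 FPKM in the H/R libraries (difference 0.19, adjusted p = 0.581), with the same high and low H/R cultures as FOS. MYC, another early gene, had a difference of −0.11 (adjusted p = 0.666).

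Of 33 other immediate early genes without a DNA-binding role, 32 were tested (not DUSP2), and 2 were higher and 5 lower (1 and 5 with FPKM rescaled by median ratios, 2 and 8 on the deposited normalized counts), 21.9% called, with a median of −0.01. The matricellular gene CTGF fell to 231 ± 14.9 FPKM in the H/R+BA group, against 361 ± 37.9 FPKM in the H/R group (difference −0.63, adjusted p = 0.00104). The stress kinase gene PLK3 (21.7 ± 0.802 FPKM, against 30.4 ± 1.91 FPKM, adjusted p = 8.85e-04) and HBEGF, a ligand of the EGF receptor (19.4 ± 1.79 FPKM, against 29.0 ± 3.09 FPKM, adjusted p = 0.00282), fell as well. The pseudokinase gene TRIB1 was lower (41.2 ± 2.70 FPKM, against 54.8 ± 6.69 FPKM, adjusted p = 0.0103) and PHLDA1 higher (30.8 ± 1.76 FPKM, against 24.5 ± 1.00 FPKM, adjusted p = 0.00443). SOCS3 (lower, adjusted p = 0.0322) and GADD45A (higher, adjusted p = 0.0471) were named after their values were seen. The SOCS3 call was lost without H/R+BA replicates 2, 3 or 4 or H/R replicates 2 or 3 (adjusted p 0.0643 to 0.0817). The GADD45A call was lost without any library but H/R replicate 4 (adjusted p 0.0631 to 0.119) and with FPKM rescaled by median ratios (0.0528). Without H/R replicate 3 the list held 1 higher and 8 lower. DUSP1, a phosphatase that switches off MAP kinases, had a difference of 0.14 (adjusted p = 0.606), ZFP36, which degrades AU-rich mRNAs, one of −0.09 (0.627) and IER5 one of 0.01 (0.969).

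Of 31 upstream regulators, 29 were tested (not RPS6KA5 and CAMK4), and 4 were higher and 5 lower (4 and 8 on the deposited normalized counts), 31.0% called, with a median of −0.05. On the SRF side, MKL1, the actin-regulated coactivator of SRF, fell to 31.6 ± 1.72 FPKM in the H/R+BA group, against 41.3 ± 2.79 FPKM in the H/R group (difference −0.37, adjusted p = 0.00322). ELK3, a ternary complex factor, was lower (21.7 ± 0.992 FPKM, against 26.7 ± 2.58 FPKM, adjusted p = 0.0204), but not without H/R+BA replicate 1 (0.0605) or H/R replicate 4 (0.0509). Its relatives ELK1 and ELK4 had differences of −0.12 (adjusted p = 0.163) and −0.32 (adjusted p = 0.0933), and ELK4 was called lower without H/R+BA replicate 4 (0.0398).

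Among the kinases, MAPK8 (JNK1), which phosphorylates JUN, had 18.5, 19.2, 19.5 and 21.3 FPKM in the H/R+BA libraries, against 26.97, 32.99, 28.3 and 33.4 FPKM in the H/R libraries, and fell by 0.60 on the log2(FPKM + 1) scale (adjusted p = 0.00111). MAPK3 (ERK1), which phosphorylates the ELK factors, rose to 38.5 ± 2.45 FPKM in the H/R+BA group, against 28.6 ± 3.10 FPKM in the H/R group (adjusted p = 0.00582). MAP2K2 (adjusted p = 0.0253) and RPS6KA1 (adjusted p = 0.0330), both of the ERK cascade, were called higher and were named after their values were seen. Without H/R+BA replicates 2, 3 or 4 neither was called (adjusted p 0.0521 to 0.0762 for MAP2K2 and 0.0616 to 0.0880 for RPS6KA1), which left 2 higher regulators in place of 4. RPS6KA1 also lost its call without H/R replicates 1 (0.0732) or 3 (0.0525). On the cAMP side, CREM, whose products include the repressor ICER, had 63.2, 55.3, 53.1 and 51.3 FPKM in the H/R+BA libraries, against 34.3, 28.2, 34.9 and 33.8 FPKM in the H/R libraries. CREM rose by 0.75 on the same scale (standard error 0.084, adjusted p = 5.79e-04), and its isoforms were not separated here. CRTC1, a coactivator of CREB, was lower (4.14 ± 0.400 FPKM, against 5.75 ± 0.573 FPKM, adjusted p = 0.0124).

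Of 18 corepressors and partners of EGR and AP-1 proteins, 14 were tested, and by limma 3 were higher and 0 lower, 21.4% called, with a median of 0.10. At an unadjusted p under 0.05, 5 were higher and 1 lower. JDP2, which dimerises with JUN proteins and represses AP-1 targets, had 8.31, 10.2, 7.76 and 8.43 FPKM in the H/R+BA libraries, against 4.42, 4.53, 5.10 and 4.603 FPKM in the H/R libraries (difference 0.77, adjusted p = 6.60e-04). DDIT3, the stress factor CHOP, rose to 28.1 ± 2.24 FPKM in the H/R+BA group, against 15.04 ± 3.86 FPKM in the H/R group (difference 0.89, adjusted p = 0.00449). NAB1, a corepressor that binds EGR1, was higher (29.4 ± 2.00 FPKM, against 24.996 ± 0.926 FPKM, adjusted p = 0.0236), a call lost without H/R+BA replicates 1 (0.0670), 2 (0.0612) or 3 (0.0549). NAB2, the other EGR corepressor and itself a target of EGR1, had a difference of −0.15 (adjusted p = 0.127). Without H/R replicate 4 this list held 5 calls, all higher.

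Of 26 genes described as targets of EGR1 or AP-1, 24 were tested (not MMP3 and MMP9), and 5 were higher and 2 lower, 29.2% called, with a median of 0.03. Without H/R replicate 3 the list held 5 higher and 4 lower, and without H/R replicate 4 it held 7 higher and 2 lower. The matrix metalloproteinase genes MMP1 and MMP10 moved in opposite directions. MMP1 had 33.7, 29.6, 29.7 and 27.04 FPKM in the H/R+BA libraries, against 13.6, 10.97, 14.5 and 16.9 FPKM in the H/R libraries (difference 1.06, adjusted p = 5.09e-04). MMP10 had 7.16, 9.47, 8.95 and 10.1 FPKM in the H/R+BA libraries, against 16.6, 21.8, 24.1 and 24.02 FPKM in the H/R libraries (difference −1.18, adjusted p = 5.62e-04). The groups were apart for both genes. The cytokine gene IL6 rose to 9.64 ± 1.703 FPKM in the H/R+BA group, against 4.38 ± 1.09 FPKM in the H/R group (difference 0.99, adjusted p = 0.00253), and the angiogenic ligand gene VEGFA to 161 ± 9.49 FPKM, against 119.8 ± 14.3 FPKM (difference 0.43, adjusted p = 0.00620). HBEGF, which is also on the list of early genes, was lower. FGF2 (adjusted p = 0.0132) and CCND1 (adjusted p = 0.0299) were higher and were named after their values were seen, and the CCND1 call was lost without H/R+BA replicates 1, 2 or 4 or H/R replicate 2 (adjusted p 0.0551 to 0.0770). A target list written from general knowledge does not say which of these genes EGR1 or AP-1 regulates in hiPS-CMs.

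Among markers of other cell types, the endothelial, pluripotency and macrophage sums did not overlap between the groups, the macrophage sums only narrowly. The fibroblast, smooth muscle and hepatic sums overlapped. Over all 14334 tested genes, 13.7% were called higher and 11.1% lower. The summed endothelial markers were 54.0 to 62.4 FPKM in the H/R+BA libraries, against 35.4 to 42.5 FPKM in the H/R libraries, with 4 of the 6 tested genes higher and VWF and CLDN5 under 1 FPKM in every library. The pluripotency markers summed to 10.96 to 13.3 FPKM, against 4.00 to 4.85 FPKM, with all 3 tested genes higher and NANOG, SOX2 and UTF1 under 1 FPKM. Macrophage markers summed to 13.3 to 19.3 FPKM, against 5.33 to 13.01 FPKM, with 2 of the 3 tested genes higher and PTPRC, CD14 and AIF1 under 1 FPKM. Fibroblast markers summed to 683 to 892 FPKM, against 481 to 763 FPKM, with 2 of the 7 tested genes higher. Smooth muscle markers summed to 1855 to 2116 FPKM, against 1927 to 2752 FPKM, with 1 of the 6 tested genes higher and 1 lower. Hepatic and endoderm markers summed to 517 to 909 FPKM, against 408 to 1164 FPKM, with 1 of the 6 tested genes higher. The part of all these markers in the levels of the immediate early genes was not tested.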

How the data were processed

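RNA sequencing of 4 H/R+BA and 4 H/R libraries of hiPS-CMs was used. Per the methods and the submitters' processing notes, the authors trimmed reads with Trimmomatic 0.39, aligned these with HISAT2 2.1.0 on GRCh38.p5, quantified genes with featureCounts 2.0.6 and tested them with Cuffdiff 2.2.1. Their annotation was not given in the sources used here. Deposited was a table with, for each library, FPKM normalized between libraries by the authors and normalized counts, which are not whole and were read as a signal. The deposited sequencing summary gives the count of reads and the percent mapped per library. FPKM keeps no separate counting error, and intervals from counts were left out. The authors' fold changes and p-values, 4 columns of group means and 9 libraries of the summary were not used.

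Differences were computed on log2(FPKM + 1), pseudocount 1, and tested with limma 3.58.1 in R 4.3.3 (variance trended on the mean, two-sided, Benjamini-Hochberg over the genes tested, threshold 0.05) for the 14334 genes that reached 1 FPKM in 4 libraries or more. A linear model stood in for Cuffdiff, which needs reads. The procedure was checked on simulated data. Members and lists were chosen with earlier results of these data known. The rule for named genes took all 10 members, SRF, ELK1, ELK3, ELK4, NAB1, NAB2, FOSL1, FOSL2, JUND, ATF3, EGR4, NR4A1, NR4A2, NR4A3, IER5, DUSP1, ZFP36 and MYC, and up to 5 called genes of each list with the smallest adjusted p. Alternatives were a pseudocount of 0.1, no filter, FPKM rescaled by median ratios, the normalized counts, the replicate number as a block and leaving out each library.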

Additional observations from a re-analysis of the deposited data

Results flagged for a closer look

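In the H/R group, replicate 2 stood far above the other 3 libraries by FPKM for EGR2 and for EGR3. Its gap to the nearest library took 0.844 of the whole range of the H/R group for EGR2 (1.19 FPKM, against 0.636 to 0.723 FPKM in the others) and 0.878 for EGR3 (1.44 FPKM, against 0.995 to 1.05 FPKM), both above Dixon's critical value for 4 libraries. In all, 20 groups of 4 libraries were examined, and 2 exceeded that value, where chance exceeds it in about 1 in 20. By normalized counts EGR3 had 161 in H/R replicate 2, against 117, 124 and 136 in replicates 1, 3 and 4. The EGR3 library thus stood less far apart by that measure, to which the FPKM of EGR3 do not keep 1 proportion. For EGR2 the count was 137 in H/R replicate 2 and 81.6 in the next highest H/R library. Dixon's value was not computed on the counts. Both genes lie near 1 FPKM, and the cause was not tested.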

How the results depend on the processing

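None of the called genes named here changed direction under the alternatives run, while the small uncalled differences of JUN, ATF3, DUSP1, IER5 and ZFP36 took either sign when 1 library was left out. The number of members with groups apart cannot change with the pseudocount, the filter or the block. It was 5 with FPKM rescaled by median ratios, 5 on the normalized counts and 5 to 6 without 1 library. The members' median difference lay between −0.44 and −0.27 without 1 library. With pseudocount 0.1 the differences were −1.46 for EGR1, −0.36 for EGR2, −0.70 for EGR3 and −1.71 for ARC, since low values are compressed less. They were −1.47 for EGR1, −0.40 for EGR2 and −0.84 for EGR3 on the deposited normalized counts. The pseudocount of 1 weighs less on these counts, but for EGR3 they also do not keep 1 proportion to the FPKM. Its ratio of means, H/R+BA over H/R, was 0.557 by counts and 0.584 by FPKM. On the normalized counts 5 corepressors and partners were called in place of 3, FOSL1, NR4A2 and ELK4 were called as well (adjusted p = 0.0454, 0.0245 and 0.0265), and 4945 genes in all, against 3546. Without filter 7 of the named genes lost their calls (CSRNP1, NR4A3, SOCS3, GADD45A, MAP2K2, RPS6KA1 and CCND1, adjusted p 0.0530 to 0.123). Without 1 library, 2491 to 3512 genes were called in all, 4 to 7 other immediate early transcription factors, 5 to 9 other immediate early genes, 7 to 9 regulators, 2 to 5 partners and 6 to 9 targets.

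With the replicate number as a block, 3 other immediate early transcription factors were called in place of 7 (CEBPD, CSRNP1, MAFK and NR4A3 lost their calls, adjusted p = 0.0550, 0.0533, 0.0501 and 0.0636). SOCS3, GADD45A, MAP2K2 and RPS6KA1 lost theirs too (adjusted p 0.0634 to 0.1002), and 2531 genes were called in all. The deviations of same-numbered libraries correlated at 0.24, −0.24, −0.25 and −0.01 for numbers 1 to 4, so the numbers were not taken as pairs. Whole counts were not used here, so the counting error behind genes near 1 FPKM was not separated from the spread between libraries.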
